A study of Mus musculus with 3 samples.

Results

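The genes described here are the aryl hydrocarbon receptor (AHR) and the genes closest to it: the receptor *Ahr*, its partner *Arnt*, its repressor *Ahrr*, the feedback gene *Tiparp*, and the target enzymes *Cyp1a1*, *Cyp1a2*, *Cyp1b1* and *Nqo1*. They are 8 of the 28631 genes named on the array, and they were represented by 13 probes. All probes carrying one of these names were taken, in both channels of all 3 arrays. The set was chosen by a reading of the same ratios, in which *Cyp1a1* stood out, so the ratios of these genes are given as a description and without a test.

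Hearts of C57/BL6 mice at 2 months of age, kept in a light and dark cycle with free access to food, were compared on 2-colour Agilent whole mouse genome arrays. On each of 3 arrays (replicates 1 to 3), RNA pooled from 2 Lrrc10-/- hearts was labelled with Cy5, and a reference pool from Lrrc10+/+ hearts (WT) with Cy3, with no exchange of the dyes. *Lrrc10* encodes a leucine-rich repeat protein of cardiac muscle. The labels name no agent given to either group. The study's methods describe pools of 2 littermate hearts, WT or Lrrc10-/-, and 3 independent biological replicates. The labels do not say whether the WT pool was the same on each array. If it was, the spread between WT pools would be missing from every value.

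The targeted gene did not follow these labels. The *Lrrc10* probe gave 476, 443 and 352 units of processed signal in Cy3 on replicates 1, 2 and 3, against 14283, 20828 and 17703 in Cy5. The channel labelled Lrrc10-/- was therefore 41.4-fold brighter for the deleted gene, a mean log2 ratio of 5.37 ± 0.41 (SD, n = 3). Where the probe lies relative to the deleted part is not given in the sources used here. For this reason every direction is stated by channel, as Cy5 (labelled Lrrc10-/-) or Cy3 (labelled WT), and no direction is assigned to a genotype. The 3 arrays shared little of their pattern over all tested probes, with Pearson correlations across probes of 0.10 between replicates 1 and 2, −0.04 between 1 and 3 and −0.18 between 2 and 3. The heart markers were in place: all 8 cardiomyocyte markers were well above background in both channels of every array. Their median log2 ratios were 0.07, −0.48 and −0.21 on replicates 1, 2 and 3, and 2 of the 8 were saturated in every measurement. In RNA of whole hearts, fewer cells of a type and less RNA per cell cannot be told apart.

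AHR is a ligand-activated transcription factor of the bHLH-PAS family. It waits in the cytoplasm with a chaperone complex, moves to the nucleus when it binds aromatic compounds or tryptophan-derived ligands, pairs with ARNT and binds sites with the core letters GCGTG. *Cyp1a1* is its best-known target, a cytochrome P450 that oxidises polycyclic aromatic hydrocarbons and is kept low in most tissues without a ligand, and *Ahrr* and *Tiparp* are induced targets that restrain the receptor.

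The results turn on one oligonucleotide for *Cyp1a1*, which is shown with that of *Ahrr* and one for *Cyp1a2*, the nearest paralogue. Each has 60 bases, is printed 5′ to 3′ as in the array annotation, and has its longest run of A and T in capitals.

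Cyp1a1: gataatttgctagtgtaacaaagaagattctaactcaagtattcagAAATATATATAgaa

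Ahrr: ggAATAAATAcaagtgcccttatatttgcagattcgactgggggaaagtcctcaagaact

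Cyp1a2: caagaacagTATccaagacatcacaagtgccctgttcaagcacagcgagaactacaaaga

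The *Cyp1a1* oligonucleotide had a GC content of 25%, and 2.02% of the 41174 gene probes had a lower one, against a median of 40%. Its run of 11 A and T bases was matched or exceeded in 5.15% of probes. It shared at most 7 bases in a row with this *Cyp1a2* oligonucleotide, and at most 14 with any probe of another gene. The part of base composition in its ratio was not tested.

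*Cyp1a1* was brighter in Cy5 (labelled Lrrc10-/-) on every array. Its processed signal, which is the intensity after background subtraction and dye normalization, was 46.7, 78.0 and 45.4 in Cy3, against 152, 169 and 95.6 in Cy5 on replicates 1, 2 and 3. Across arrays the lowest Cy5 value lay above the highest Cy3 value. How many of all tested probes showed this was not counted, so nothing is read from it. The probe was well above background in both channels of every array. The Cy5 over Cy3 ratios were 3.26, 2.17 and 2.10, with a mean log2 ratio of 1.30 ± 0.35 (SD, n = 3), or 2.46-fold. By mean log2 ratio *Cyp1a1* ranked 60th of the 29576 tested probes, and 28th of the 120 probes that the study's selection took in Cy5. The criteria of the study are a processed signal of at least 20, a p under 0.05 from the EDGE3 software and a ratio of at least 1.2 in one direction on every array. How that p was formed over the replicates is not given in the sources used here, and the deposited p of each array was used in its place, so the selection here is a reading of those criteria. The selection took 273 probes in Cy5 with limma's p instead and 507 with none.

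**Figure D1:**
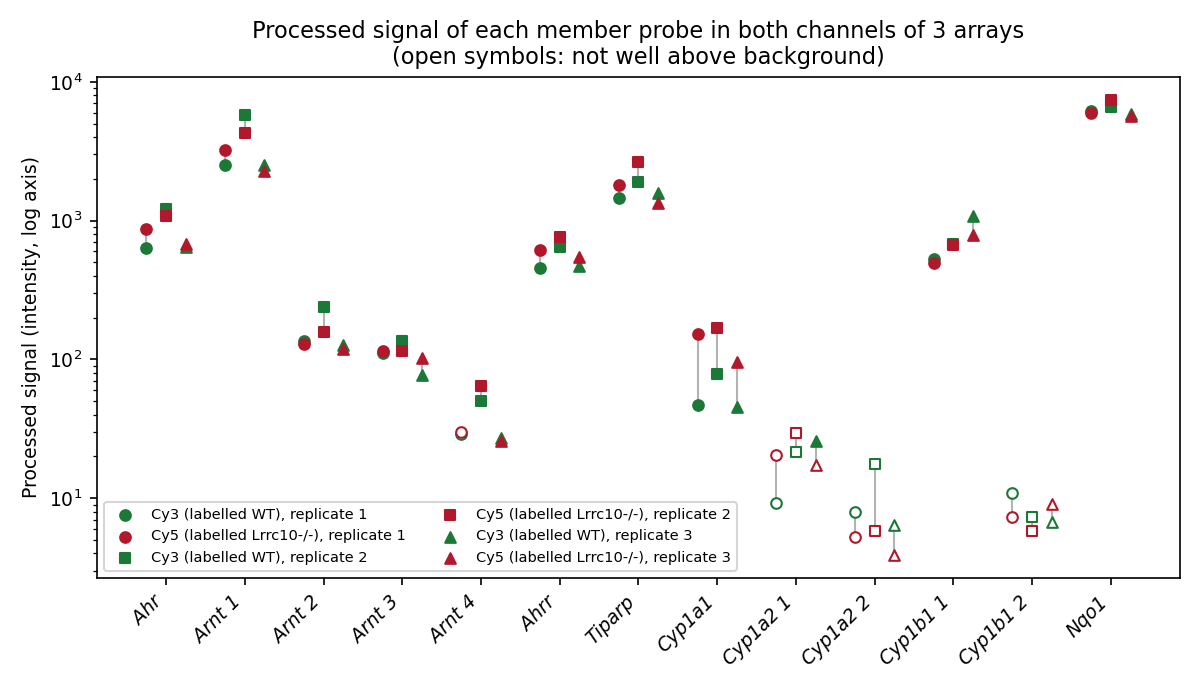
Processed signal (intensity, log axis) of all 13 member probes, in Cy3 (green) and Cy5 (red) on each of 3 arrays, with a line joining the channels of one array; probes of one gene are numbered from the brightest, and open symbols were not well above background. For *Cyp1a1* all Cy5 values, from 95.6 to 169, lie above all Cy3 values, from 45.4 to 78.0.

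The size of the *Cyp1a1* difference, read from a dim signal, depended on how the signals were processed. Before any dye normalization, its signal over the local background was 21.8, 27.4 and 23.1 units in Cy3, against 67.0, 62.1 and 46.6 in Cy5, giving log2 ratios of 1.62, 1.18 and 1.01. The median log2 ratio of all tested probes on that unnormalized scale was 0.61, 0.29 and 0.33, so *Cyp1a1* lay above it on each array. With normexp background correction at an offset of 50 and loess normalization, the mean log2 ratio was 0.25 ± 0.18 (SD, n = 3), and with normexp and median centring it was 0.26 ± 0.17. With an offset of 1 and loess, an alternative chosen after seeing the data, it was 0.46 ± 0.43. Cy5 stayed the brighter channel on all 3 arrays under each of these, but the selection no longer took the probe.

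**Figure D2:**
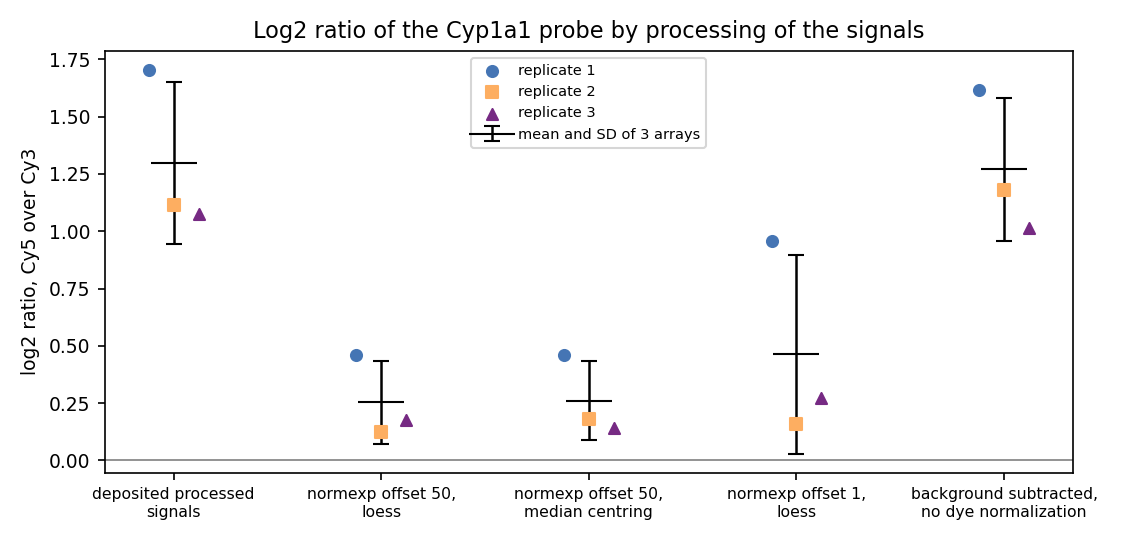
Log2 ratio (Cy5 over Cy3) of the *Cyp1a1* probe on each of 3 arrays under 5 ways of processing its signals, with bars for the mean and SD. All points lie above 0, while the mean ranges from 0.25 with normexp and loess to 1.30 with the deposited processed signals.

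For the other CYP1 enzymes no difference of this kind could be read: *Cyp1a2* was too dim, and *Cyp1b1* lay close to 0. *Cyp1a2*, whose product activates aromatic amines and is mainly a liver enzyme, was barely detected. Its first probe gave 9.21, 21.4 and 25.6 in Cy3 and 20.6, 29.3 and 17.2 in Cy5, and was well above background in 1 of these 6 measurements. Its second probe was well above background in none. Both lay below the signal minimum of 20, and no fold is given. In the mouse genome *Cyp1a1* and *Cyp1a2* are neighbouring genes on chromosome 9, read from opposite strands.

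*Cyp1b1*, which metabolises oestrogens and polycyclic hydrocarbons in tissues outside the liver, was well measured by one of its 2 probes. The signal of that probe was 529, 675 and 1085 in Cy3, against 496, 666 and 789 in Cy5. The log2 ratios were −0.09, −0.02 and −0.46, a mean of −0.19 ± 0.23 (SD, n = 3), and the ranges of the channels overlapped. The mean was 0.06 with normexp and loess and 0.33 with normexp and median centring, so its side depended on the processing. The other *Cyp1b1* probe, from 5.77 to 10.9 in either channel, was not well above background on any array.

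*Nqo1* encodes a quinone reductase that is controlled by AHR and, more strongly, by the oxidative stress factor NRF2. Its signal was 6129, 6641 and 5868 in Cy3, against 5928, 7452 and 5664 in Cy5. The channels overlapped, and the mean log2 ratio was 0.02 ± 0.12 (SD, n = 3). It was −0.19 with normexp and loess and 0.21 with normexp and median centring.

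The receptor itself was measured by 1 oligonucleotide printed in 10 spots. *Ahr* gave 638, 1219 and 644 units in Cy3 and 874, 1075 and 682 in Cy5. Its log2 ratios were 0.45, −0.18 and 0.08, a mean of 0.12 ± 0.32 (SD, n = 3). The mean was 0.46 with normexp and median centring, −0.05 without replicate 1 and 0.27 without replicate 2. Cy5 was the brighter channel in 10 of 10 spots on replicate 1, 0 of 10 on replicate 2 and 10 of 10 on replicate 3. The spots of one array differed by an SD of 0.062, 0.056 and 0.026 on the log2 scale. The arrays did not share a direction. Among the 190 tested probes printed 10 times, the median SD on the log2 scale was 0.065 over the spots within an array and 0.35 from array to array, and *Ahr* ranked 108th by the latter, counted from the largest.

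*Arnt*, the partner that AHR shares with the hypoxia factors, had 4 probes, and these did not move together. The brightest gave 2535, 5762 and 2532 in Cy3 and 3211, 4304 and 2268 in Cy5, with log2 ratios of 0.34, −0.42 and −0.16. The second gave log2 ratios of −0.06, −0.60 and −0.11, below 0 on all arrays. The third gave 0.04, −0.24 and 0.40, and the dimmest 0.03, 0.36 and −0.07. The means of the 4 probes ran from −0.26 ± 0.30 to 0.11 ± 0.22 (SD, n = 3), all within 1 SD of 0. The mean of the brightest, −0.08, was 0.12 with normexp and loess, 0.51 with normexp and median centring and 0.09 without replicate 2. The dimmest was well above background on 2 of 3 arrays in each channel.

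The repressor *Ahrr*, which competes with AHR for ARNT, was brighter in Cy5 on every array by a small margin. Its signal was 455, 643 and 474 in Cy3, against 615, 767 and 547 in Cy5, so the ranges of the channels overlapped across arrays although each array had Cy5 on top. The log2 ratios were 0.44, 0.25 and 0.21, a mean of 0.30 ± 0.12 (SD, n = 3), and the selection did not take it. The mean was 0.41 with normexp and loess and 0.66 with normexp and median centring, under which the median of all tested probes was itself 0.15.

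*Tiparp*, an ADP-ribosyltransferase that modifies AHR, gave 1451, 1901 and 1587 in Cy3 and 1805, 2650 and 1332 in Cy5. It was brighter in Cy5 on replicates 1 and 2 and in Cy3 on replicate 3, with log2 ratios of 0.31, 0.48 and −0.25. The mean was 0.18 ± 0.38 (SD, n = 3), and it became −0.02 with normexp and loess. Leaving out replicate 2 gave 0.03, and leaving out replicate 3 gave 0.40.

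**Figure D3:**
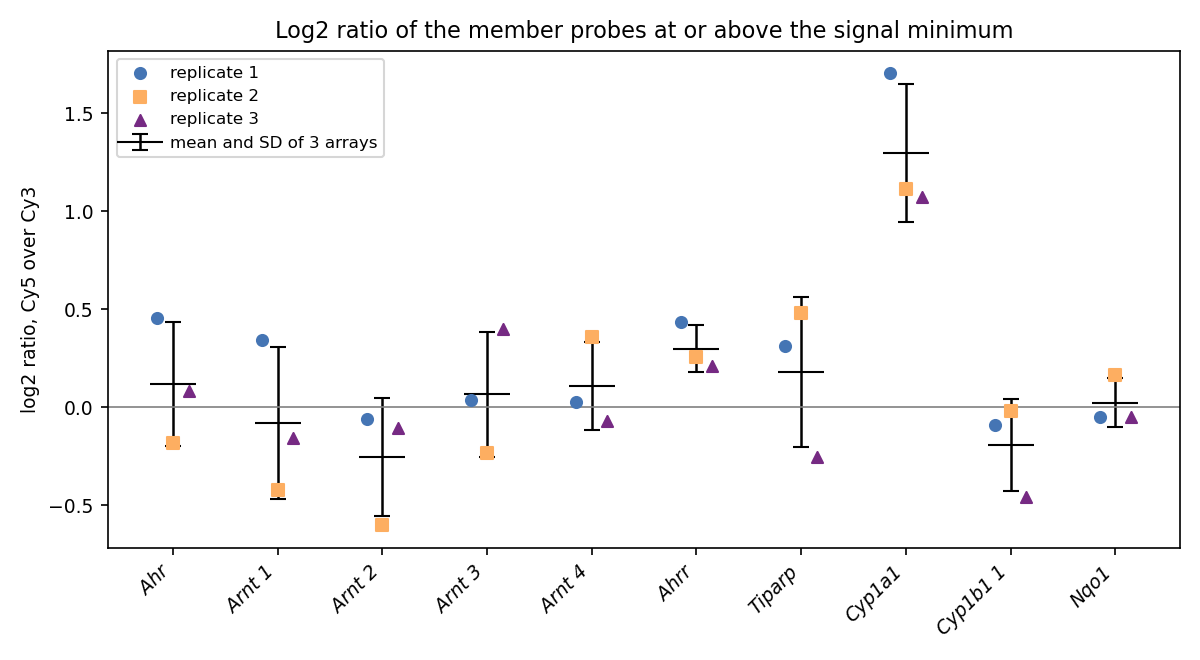
Log2 ratio (Cy5 over Cy3) of the 10 member probes at or above the signal minimum on each of 3 arrays, with bars for the mean and SD; probes of one gene are numbered from the brightest. *Cyp1a1* lies between 1.07 and 1.70, while the means of the other 9 probes run from −0.26 to 0.30.

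Of the 13 probes, 10 probes of 7 genes reached the signal minimum, 9 were well above background in both channels on all arrays, 2 were so in neither channel of any array, and 0 were saturated. The selection took 1 of the 10 in Cy5, *Cyp1a1*, against 0.406% of all tested probes, and 0 in Cy3, against 0.511%. Over all tested probes, limma's moderated test with Benjamini-Hochberg adjustment called 0.00676% brighter in Cy5 and 0.0% in Cy3. Limma passed 3.07% of all tested probes at an unadjusted p under 0.05, the methods' t-test 4.21%, and after adjustment the latter called 0. Without replicate 3 the limma calls in Cy5 rose from 2 to 409. No p is given for a member. By direction alone, 2 of 10 member probes were brighter in Cy5 on all 3 arrays (*Cyp1a1* and *Ahrr*), against 10.0% of all tested probes, and 2 in Cy3 (the second *Arnt* probe and *Cyp1b1*), against 11.0%. Because the set was chosen on these ratios, nothing is read from these counts. The median of the 10 means was 0.09, beside 0.00 for all tested probes, and the SDs over arrays ran from 0.12 to 0.39, beside a median of 0.39.

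Promoter sequence was matched by symbol for 7 of the 8 genes, all but *Ahr*. The windows come from RefSeq (build GRCm38.p6) and run from 250 bases before to 50 after the start of the gene. The 5-letter AHR core GCGTG was searched on both strands and occurred in 5 of the 7 windows (*Arnt*, *Ahrr*, *Tiparp*, *Cyp1a1* and *Cyp1b1*), against 32.4% of the 32851 windows in the table. The longer form TNGCGTG, which contains the core, was in the *Ahrr* window and in 5.07% of all windows. The windows of *Cyp1a1* and *Ahrr*, the genes brighter in Cy5 on every array, are shown with the core in capitals.

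Cyp1a1, chr9:57697363-57697662, plus strand: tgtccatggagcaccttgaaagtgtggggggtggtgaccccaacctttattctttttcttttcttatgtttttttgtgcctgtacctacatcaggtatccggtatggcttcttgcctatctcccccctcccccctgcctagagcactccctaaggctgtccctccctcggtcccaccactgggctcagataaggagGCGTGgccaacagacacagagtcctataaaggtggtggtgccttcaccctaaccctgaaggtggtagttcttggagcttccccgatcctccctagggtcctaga

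Ahrr, chr13:74292282-74292581, minus strand: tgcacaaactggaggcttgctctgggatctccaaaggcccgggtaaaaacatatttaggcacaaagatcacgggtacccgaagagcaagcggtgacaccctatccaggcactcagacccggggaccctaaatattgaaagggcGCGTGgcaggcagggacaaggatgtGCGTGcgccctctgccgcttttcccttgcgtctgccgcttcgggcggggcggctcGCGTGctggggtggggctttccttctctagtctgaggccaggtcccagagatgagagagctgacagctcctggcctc

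The core of the *Cyp1a1* window began 54 bases before the start. Those of *Ahrr* began 107, 82 and 27 bases before it, and 11.1% of all windows held 2 or more cores. The windows of *Cyp1a2* and *Nqo1* did not hold these letters. The upstream enhancer through which *Cyp1a1* is known to respond to AHR lies outside this window, and a match of letters is a description only.

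Among the genes that work with the receptor, the list of complex members and coregulators had 22 tested genes of 23, each read by its brightest probe. Its median mean log2 ratio was −0.00, beside −0.01 for all 20603 tested genes. On all 3 arrays 6 of the 22 were brighter in Cy5 and 1 in Cy3, against 9.47% and 12.2% of all genes. The selection took 1 gene in Cy5, against 0.442%, and 0 in Cy3, against 0.612%. The gene taken was *Xpo1*, the export receptor that returns AHR to the cytoplasm. Its signal was 2593, 3882 and 2253 in Cy3, against 3624, 5276 and 3733 in Cy5, with a mean log2 ratio of 0.55 ± 0.15 (SD, n = 3), and it was taken under 7 of 7 other settings, between 0.46 and 0.99. The chaperone *Hsp90ab1* had a mean of −0.17 ± 0.32. The lowest mean in the list was that of *Rela*, a subunit of NF-kappaB, at −0.25 ± 0.37.

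The list of other AHR targets had 29 tested genes of 37 on the array, and its selected genes lay on both sides. The median was 0.02. On all arrays 6 genes had Cy5 on top and 7 had Cy3, beside 9.47% and 12.2% of all genes. The selection took 1 gene in Cy5 and 3 in Cy3, beside 0.442% and 0.612%. *Inmt*, which methylates tryptamine, was the one in Cy5, with log2 ratios of 0.63, 1.15 and 0.64, a mean of 0.81 ± 0.30 (SD, n = 3).

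Those in Cy3 were *Cyp2s1*, *Cdkn1a* and *Scin*. The P450 gene *Cyp2s1* had log2 ratios of −0.71, −1.18 and −0.63, with a signal of 89.7, 198 and 147 in Cy3 and 54.9, 87.6 and 95.1 in Cy5. *Cdkn1a*, which encodes the cell cycle inhibitor p21, had −0.53, −0.94 and −0.98. *Scin*, an actin-severing protein gene, had −0.56, −0.87 and −0.54. All arrays of each had Cy3 on top. With normexp and median centring their means were −0.16, −0.19 and −0.20, on the same side. Of 7 other settings, the selection still took *Cyp2s1* under 4, *Cdkn1a* under 5, *Scin* under 6 and *Inmt* under 7. Limma called 0 genes of this list, with 4 of 29 at an unadjusted p under 0.05 and 7 by the methods' t-test, against 3.32% and 4.51% of all tested genes.

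The other 25 AHR targets were not selected, with means from −0.41 ± 0.58 (*Tnfaip2*) to 0.40 ± 0.38 (*Abcg2*) and SDs over arrays from 0.05 to 1.30. The widest was *Pdk4*, a fuel-switching kinase gene of mitochondria, with log2 ratios of 1.43, −1.11 and −0.32. *Gsta1*, a glutathione transferase of the AHR battery, had a mean log2 ratio of 0.13 ± 0.05, and its homologue *Gsta2* had 0.20 ± 0.19. Transcripts of such near-identical family members can bind each other's probes, so these values are uncertain between them. *Ugt1a6b*, a glucuronosyltransferase, had 0.06 ± 0.29, and *Por*, the electron donor of the microsomal P450 enzymes, 0.17 ± 0.44.

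**Figure D4:**
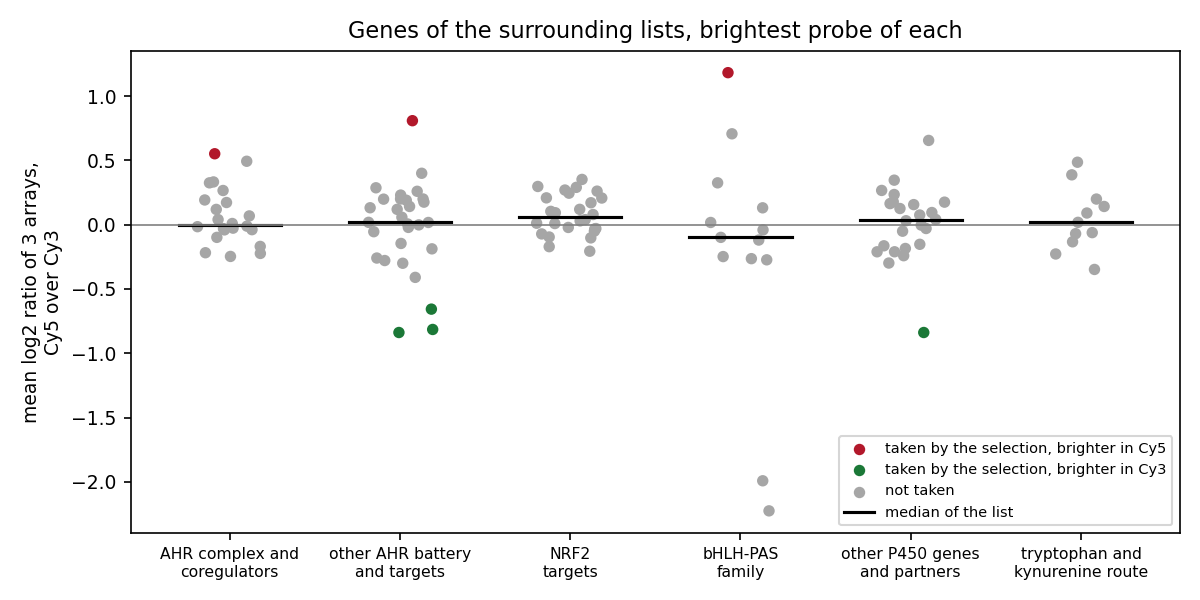
Mean log2 ratio (Cy5 over Cy3, 3 arrays) of each gene in 6 lists around the receptor, by its brightest probe, with a bar at the median of each list; red and green points were taken by the study's selection in Cy5 and Cy3. The medians lie between −0.10 and 0.06, and the selected genes lie on both sides of 0.

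The NRF2 targets, which share control of *Nqo1*, had 26 tested genes of 27 and a median of 0.06. On all arrays 1 had Cy5 on top and 2 had Cy3, beside 9.47% and 12.2% of all genes, and the selection took 0. For this list and the next lists the selection took 0.442% of all genes in Cy5 and 0.612% in Cy3. The highest was *Ephx1*, the microsomal epoxide hydrolase that acts after CYP1A1 on polycyclic hydrocarbons, with log2 ratios of 0.82, 0.35 and −0.11. The lowest was the pentose phosphate enzyme *Tkt*, at a mean of −0.21. The other microsomal P450 genes and their partners had 24 tested genes of 30 and a median of 0.04, and *Cyp2s1* was the 1 gene selected. Their highest mean, that of the retinoic acid hydroxylase *Cyp26b1*, was 0.66 ± 1.87 and came from replicate 1: its log2 ratios were 2.79, −0.15 and −0.67. The genes of tryptophan and kynurenine metabolism, a route to AHR ligands, had 11 tested genes of 15 on the array, a median of 0.02 and 0 selected. *Tph1*, the serotonin-forming hydroxylase, was highest at 0.49 ± 1.46, and *Haao* lowest at −0.35. Limma called 0 genes in each of these 3 lists; at an unadjusted p under 0.05 it passed 0, 1 and 0, and the methods' t-test 0, 2 and 0, with the same shares of all genes, 3.32% and 4.51%, as background.

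The list of the bHLH-PAS family, to which AHR and ARNT belong, also held the PAS-domain genes *Per1*, *Per2* and *Per3*. It had 13 tested genes of 19 and a median of −0.10. On all arrays 3 had Cy5 on top, among them *Per1* and *Per3*, and 3 had Cy3, beside 9.47% and 12.2% of all genes. The selection took 1 gene in Cy5, the clock repressor *Per3*, and 0 in Cy3, beside 0.442% and 0.612%. Its signal was 59.1, 120 and 32.0 in Cy3, against 165, 224 and 71.8 in Cy5, with a mean log2 ratio of 1.18 ± 0.29 (SD, n = 3), which was 0.33 with normexp and loess. Low values were those of *Npas2* and *Arntl*, of the activating arm of the clock. *Arntl* had log2 ratios of −2.87, −2.82 and −0.29. *Npas2* gave 73.2, 108 and 18.1 in Cy3, against 14.0, 5.76 and 17.3 in Cy5. As 2 of these 6 measurements were well above background, no fold is given, and its place in the plot of the lists has no measured size. *Per1* had 1.26, 0.63 and 0.23. The 2 probes of *Per2* disagreed: one gave 3.87, 2.97 and −0.05, the other −0.26, 0.66 and −0.01. The part of these clock genes in the *Cyp1a1* ratio was not tested. Limma called 0 genes of this list, with 4 of 13 at an unadjusted p under 0.05 and 1 by the methods' t-test, against 3.32% and 4.51% of all tested genes.

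The probes most like *Cyp1a1* were sought by the root mean square difference of the 3 log2 ratios. Candidates were the 27621 tested probes of other genes that were well above background on all arrays in at least 1 channel. With 3 arrays, such a likeness is a description of few values. The nearest was one probe of the ubiquitin ligase gene *Rnf41*, at a difference of 0.083, with log2 ratios of 1.74, 1.01 and 0.98. The other 3 probes of *Rnf41* had means of 0.27, 0.22 and −0.22, so that gene as a whole did not show the pattern. The next were *Per3*, at 0.19, and both probes of *Ptgfr*, the prostaglandin F receptor gene, at 0.24 and 0.27. The *Ptgfr* probes agreed, with mean log2 ratios of 1.15 ± 0.14 and 1.06 ± 0.21 (SD, n = 3).

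Tissue markers were read beside *Cyp1a1*, which is inducible in endothelium, lung and liver. Their part in its ratio was not tested. The 8 endothelial markers were all well above background, with medians of 0.19, −0.57 and −0.25 and a summed signal of 47518 to 96818 in Cy3 and 42079 to 66388 in Cy5. Of 6 lung epithelial markers 4 were well above background in no measurement, among them the surfactant gene *Sftpc*, and 1, *Scgb1a1*, was so in all. The summed signal of the list was 162 to 228 in Cy3 and 143 to 202 in Cy5. Most of it came from *Scgb1a1*, with 111 to 164 in Cy3 and 101 to 158 in Cy5. Of 5 liver markers 2 were well above background in no measurement and 2 in all, with a summed signal of 907 to 1876 in Cy3 and 976 to 1507 in Cy5. Of these *Ahsg*, well above background in all 6 measurements, had log2 ratios of 0.23, 0.01 and −0.94, and *Alb*, in 5 of 6, was brighter in Cy3 on every array. No median is read for the lung, liver and fat lists, since many of their markers were not well above background. Of 5 fat markers 1 was well above background in all measurements, and the list had a summed signal of 124 to 419 in Cy3 and 140 to 386 in Cy5. The 3 red blood cell markers, all well above background, had medians of 0.63, 0.96 and −0.32, but they did not move together. *Hbb-b1* had log2 ratios of −0.13, −0.19 and −0.61, *Hba-a1* 0.96, 0.96 and −0.02, and *Alas2* 0.63, 1.04 and −0.32. *Hbb-b1* was saturated in 4 of 6 measurements and *Hba-a1* in 2, so the sizes of their ratios are uncertain.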

How the data were processed

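Gene expression was measured on 3 2-colour arrays of adult heart RNA. The authors deposited Agilent Feature Extraction 9.1.3.1 output for each array. The deposited processed signal intensity had background subtracted and dyes normalized by linear and lowess steps, with a surrogate value for spots not above background. The deposited log10 ratio is Cy5 over Cy3 of these signals, and the deposited p-value belongs to 1 spot of 1 array. A second deposited table repeats the log10 ratios and was used as an alternative. Per the labels all arrays have one dye orientation, and they lay on one slide, so no batch could be tested.

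Ratios were converted to log2, outlier spots (11, 21 and 4 of 43379 gene spots) were dropped, and spots of a probe were averaged to 41174 probes. Median processed signals were 126 to 172 in Cy3 and 125 to 174 in Cy5, and the number of arrays limits precision. Probes with a geometric mean signal of at least 20 were tested (29576 probes of 20603 genes) with limma 3.58.1 in R 4.3.3, as an intercept moderated by eBayes with a trend on intensity (two-sided; adjusted p under 0.05 by Benjamini-Hochberg). The code was tested on simulated data. Gene names came from the reference table by RefSeq accession for 24836 probes and otherwise from the array, which can be old.

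The genes, lists and alternatives were chosen with earlier results of these data known. Named genes were all member probes, *Lrrc10*, the 4 probes nearest *Cyp1a1*, listed markers, and in each list the selected genes or else the highest and lowest. *Hsp90ab1*, *Gsta1*, *Gsta2*, *Ugt1a6b*, *Por*, *Tnfaip2*, *Abcg2*, *Pdk4*, *Arntl*, *Per1*, *Per2* and the list extremes given beside selected genes fell outside this rule and were chosen after their values were seen. Offset 1, the unnormalized ratio and the settings for list genes were added after seeing the data. Replicates are described as separate biological samples.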

Additional observations from a re-analysis of the deposited data

How the results depend on the processing

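*Cyp1a1* had a mean log2 ratio of 1.30 with the deposited ratios and with the authors' second table, 1.09 to 1.41 when each replicate was left out, and 1.27 with background subtracted and no dye normalization. It was 0.25 with normexp and loess, 0.26 with normexp and median centring and 0.46 with normexp at an offset of 1 and loess; the cause was not tested. *Cyp1a1*, the 1 member that the study's selection took, did not change sign under these settings. The means of other members did under some settings, among them *Ahr*, the brightest *Arnt* probe, *Tiparp*, *Cyp1b1* and *Nqo1*. The selection took 120 probes in Cy5 and 151 in Cy3; with normexp and loess 60 and 76, with offset 1 69 and 85, with median centring 81 and 9, with no p criterion 507 and 577, with limma's p 273 and 330, and without each replicate 573 to 1167 and 439 to 665. Limma's 2 calls in Cy5 became 0 with no signal filter or by the t-test, 1 with normexp and loess, with offset 1 or with probes well above background, and 0 to 409 without each replicate (409 without replicate 3); its 0 calls in Cy3 became 0 to 134 (134 without replicate 3). Median centring after normexp shifted the median of all tested probes to 0.15, and 6 of 10 member probes were then brighter in Cy5 on all arrays. Each array's ratio already pairs its 2 channels. No paired analysis was possible because, beyond this, the ratios form a single group with no second group to block on replicate. Outliers were not sought among 3 arrays. Signals near background limit *Cyp1a1*, *Cyp1a2*, the dimmest *Arnt* probe and the second *Cyp1b1* probe.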
